A study of Mus musculus with 12 samples.

Results

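The D-type cyclins, their kinases and the inhibitors that hold them back were followed here from neural stem cell to young neuron, with and without *Larp7*. The group comprised 10 genes picked by name: the cyclins *Ccnd1*, *Ccnd2* and *Ccnd3*, the kinases *Cdk4* and *Cdk6*, the inhibitors *Cdkn1b*, *Cdkn1c*, *Cdkn2c* and *Cdkn2d*, and *Rb1*. All 10 were found by symbol among the 27998 features of the single-cell matrices and by Entrez number among the 40814 genes of the neurosphere count table, and all 10 passed the filter on low counts in both kinds of data.

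D-type cyclins link growth signals to the cell cycle. They bind CDK4 or CDK6, and the active kinase phosphorylates the retinoblastoma protein RB1, which then lets go of E2F factors so that genes for DNA replication are switched on. The INK4 inhibitors p18 (*Cdkn2c*) and p19 (*Cdkn2d*) bind CDK4 and CDK6 alone, whereas p27 (*Cdkn1b*) and p57 (*Cdkn1c*) of the CIP/KIP family also block later cyclin-CDK complexes. In the developing brain, cyclin D2 is known for its part in the intermediate progenitors that make neurons, and p27 and p57 for helping cells leave the cycle.

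Dentate gyrus of mice at postnatal day 7 was profiled cell by cell in 3 libraries, each pooling 3 to 4 dentate gyri of littermates. The groups were wild-type mice, *Larp7* f/f;nestin-Cre mice and, as the other conditional mutant, *Larp7* f/f;Emx1-Cre mice. *Larp7* encodes a protein of the 7SK complex, which keeps the elongation kinase P-TEFb inactive, and its floxed allele loses exon 9 where Cre acts. Nestin-Cre acts throughout the brain and also in some other organs, and Emx1-Cre in neural stem and progenitor cells that express Emx1 and in their offspring. The labels of the day 7 controls say only wild-type, and the study names *Larp7*-floxed mice as its wild-type controls in general. Bulk RNA was measured in 2 wild-type cultures (*Larp7* f/f without Cre) and 3 knockout cultures (*Larp7* f/f;Emx1-Cre) of neurospheres grown from dentate gyrus at postnatal day 1 and kept for 2 days in differentiation medium. The study's methods give 20 ng/ml bFGF for the first 2 days of differentiation. Its results instead describe EGF and FGF as withdrawn and serum as supplied from the start. For both mutant single-cell libraries the title and the genotype entry name opposite Cre lines, and the titles were followed. Any statement that tells the nestin-Cre from the Emx1-Cre library rests on that choice.

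The libraries held 10997, 6685 and 6531 cells past the filter, with median depths of 1782, 3644 and 3873 UMIs in the wild-type, nestin-Cre and Emx1-Cre library, and values are given in this order throughout. The wild-type library stood apart: 43.5% of its cells held under 1500 UMIs, against 8.93% and 6.72%, and 1144 of its cells against 8 and 38 were gated as erythroid. Between 11 and 23 barcodes were shared by any pair of libraries. Free hemoglobin RNA in microglia, which do not make it, was 179 CPM in wild-type and 42.4 and 45.9 CPM in the mutants, where CPM is the usual count scaled to the total, here the UMIs of a gene over the UMIs of all genes, each summed over the cells of a type. The targeted gene followed the labels. *Larp7* was at 108, 19.6 and 20.6 CPM in dividing intermediate progenitors and at 51.8, 10.6 and 13.5 CPM in neuroblasts, although it was also at 59.6, 34.6 and 38.4 CPM in microglia, outside the neural lineage.

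Cells were placed by marker lists into 6 steps: non-dividing and dividing radial glia-like cells (RGLs), the stem cells; dividing and cycle-exiting neuronal intermediate progenitor cells (nIPCs); neuroblasts; and immature granule neurons. Names are by likeness to these lists, and none of the 10 genes was used in the gates. The steps held 2655, 2807 and 2923 cells, with 1015, 1539 and 1314 neuroblasts as the most frequent step and 78, 167 and 99 immature granule neurons as the rarest. Summed CPM of the RGL list lay between 15603 and 18574 in non-dividing RGLs and between 654 and 1076 in neuroblasts, and the neuroblast list ran from 841 to 1052 up to 13009 to 13547 between the same steps. Microglial markers summed to at most 81.4 CPM in any step. Dividing cells were those with at least 20 of 10000 UMIs in 25 cell cycle genes, so that any difference between dividing and non-dividing classes is one between cells chosen for their cycle genes.

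In mouse build GRCm38.p6, *Ccnd1* is at chr7:144929931-144939831, *Ccnd2* at chr6:127125162-127152188 and *Ccnd3* at chr17:47505051-47599689. *Cdk4* is at chr10:127063535-127067288 and *Cdk6* at chr5:3341004-3531008. *Cdkn1b* is at chr6:134920401-134925525, *Cdkn1c* at chr7:143458339-143461059, *Cdkn2c* at chr4:109660876-109666756, *Cdkn2d* at chr9:21288459-21291421 and *Rb1* at chr14:73192858-73325951. *Ccnd1*, *Ccnd2*, *Ccnd3*, *Cdk4*, *Cdk6* and *Rb1* each overlap another annotated gene (*Tspan31* for *Cdk4*, *Bysl* for *Ccnd3*, *Lpar6* for *Rb1*), and reads in the shared stretch of the neurosphere libraries may belong to either gene.

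Promoter windows from 250 bases before to 50 bases after a transcription start were at hand from RefSeq (GRCm38.p6) for 6 of the 10 members, in 8 windows. They are shown for the kinases and the INK4 inhibitors, the members that rose into RGL division and have a window (chosen after their values were seen). Capitals mark the E-box CACGTG in *Cdk4* (chr10:127063285-127063584, plus strand), the E-box and an E2F-type motif TTTNNCGC in *Cdk6* (chr5:3343643-3343942, plus strand), and the GC box GGGCGG, or its reverse complement, in *Cdkn2c* (chr4:109666707-109667006, minus strand) and *Cdkn2d* (chr9:21291160-21291459, minus strand). Each sequence runs from 5′ to 3′ on the gene's own strand.
Cdk4: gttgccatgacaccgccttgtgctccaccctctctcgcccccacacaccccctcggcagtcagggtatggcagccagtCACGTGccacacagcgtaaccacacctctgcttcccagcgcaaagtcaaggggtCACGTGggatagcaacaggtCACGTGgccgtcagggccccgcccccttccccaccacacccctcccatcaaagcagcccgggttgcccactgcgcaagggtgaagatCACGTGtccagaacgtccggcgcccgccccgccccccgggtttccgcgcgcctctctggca
Cdk6: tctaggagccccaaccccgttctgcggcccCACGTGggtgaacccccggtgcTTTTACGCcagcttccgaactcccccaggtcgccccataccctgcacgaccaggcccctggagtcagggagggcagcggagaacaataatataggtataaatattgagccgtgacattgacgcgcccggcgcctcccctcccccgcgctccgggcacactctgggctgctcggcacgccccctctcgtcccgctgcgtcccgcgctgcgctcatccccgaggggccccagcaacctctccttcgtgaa
Cdkn2c: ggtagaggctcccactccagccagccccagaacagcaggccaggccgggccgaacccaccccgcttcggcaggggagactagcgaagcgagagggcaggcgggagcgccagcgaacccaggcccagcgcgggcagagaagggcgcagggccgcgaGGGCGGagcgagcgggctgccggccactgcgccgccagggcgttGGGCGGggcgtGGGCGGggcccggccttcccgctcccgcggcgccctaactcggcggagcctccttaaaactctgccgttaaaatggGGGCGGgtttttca
Cdkn2d: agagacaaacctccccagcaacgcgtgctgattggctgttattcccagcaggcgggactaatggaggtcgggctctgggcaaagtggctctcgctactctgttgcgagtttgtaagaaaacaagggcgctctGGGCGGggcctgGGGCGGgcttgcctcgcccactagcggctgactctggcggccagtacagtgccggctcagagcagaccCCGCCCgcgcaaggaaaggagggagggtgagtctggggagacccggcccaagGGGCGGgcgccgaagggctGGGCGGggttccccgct
Both strands were searched, and none of the marked motifs overlapped another. The *Cdk4* window held 4 E-boxes (and 3 GC boxes, not marked), at -172, -118, -98 and -11 from the start, a number reached by 8 of 32851 mouse promoter windows of this length (0.0244%), while 7.15% of windows held an E-box at all. GC boxes were common: 35.7% of all windows held one and 5.49% held at least 4, as the *Cdkn2c* window (4) and the *Cdkn2d* window (5) did. E2F-type letters were in 5.17% of all windows and in 1 of the 8 member windows, that of *Cdk6*, and the CHR letters TTTGAA were in 17.9% of all windows and in none of the 8. These are matches of letters and no measured binding.

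**Figure D1:**
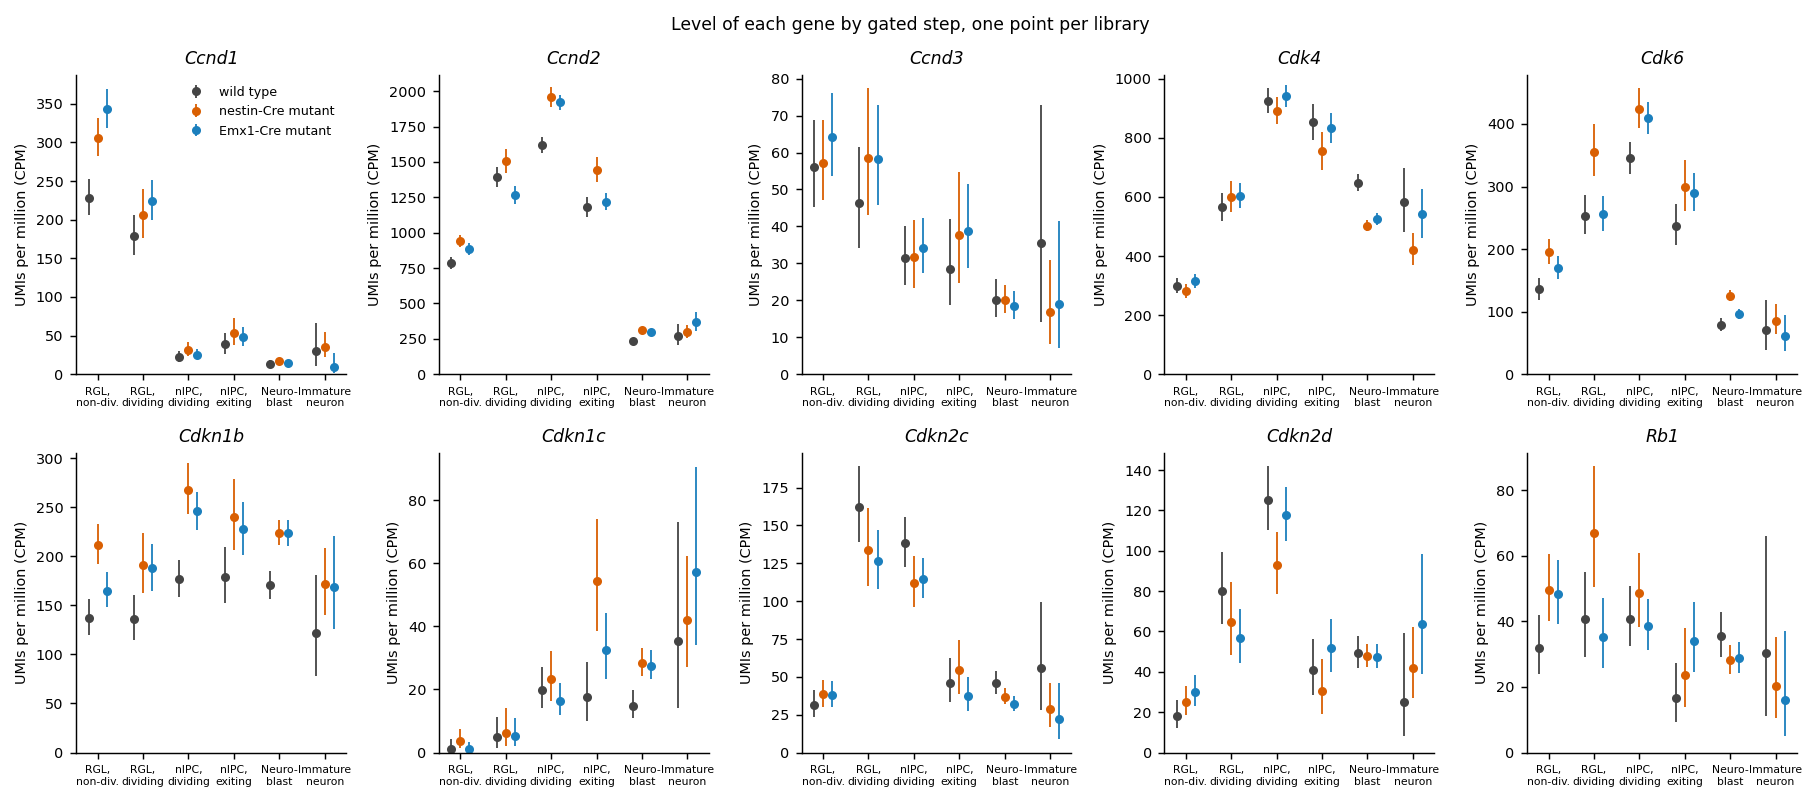
UMI level (CPM, linear axis) of each of the 10 genes in the 6 steps from non-dividing RGL to immature granule neuron, with 1 point for each of the 3 single-cell libraries and bars for 95% Poisson intervals, which cover counting error only. *Ccnd1* starts between 228 and 343 CPM and drops below 32 CPM in dividing nIPCs in every library, while *Ccnd2* peaks there between 1619 and 1956 CPM.

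The D-type cyclins changed places between stem cell and progenitor. *Ccnd1* stood at 228, 306 and 343 CPM in non-dividing RGLs, 179, 206 and 225 in dividing RGLs, 22.4, 31.6 and 25.3 in dividing nIPCs, 38.5, 52.8 and 47.8 in exiting nIPCs, and 13.6, 16.6 and 14.5 in neuroblasts. All 3 libraries gave the same order over these steps with no overlap between neighbours, and immature granule neurons, at 30.4, 35.4 and 9.54 CPM, overlapped both of the lowest. *Ccnd2* ran the other way at first, from 785, 942 and 883 CPM in non-dividing RGLs to 1392, 1504 and 1266 in dividing RGLs and 1619, 1956 and 1922 in dividing nIPCs. It then went down to 1179, 1445 and 1219 CPM in exiting nIPCs and to 234, 310 and 297 in neuroblasts, with 273, 301 and 369 in immature granule neurons. Only the dividing RGLs and exiting nIPCs, and the last pair of steps, overlapped among neighbours in the order of *Ccnd2* levels. *Ccnd3* was low throughout, at a mean of 59.2 ± 4.39 CPM (SD, n = 3 libraries) in non-dividing RGLs, 54.4 ± 6.91 in dividing RGLs, 32.4 ± 1.62 in dividing nIPCs and 19.5 ± 0.940 in neuroblasts.

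As shares of all D-cyclin UMIs, *Ccnd1* made up 21.3% to 26.6% over the libraries in non-dividing RGLs, 11.1% to 14.5% in dividing RGLs and 1.28% to 1.56% in dividing nIPCs. *Ccnd2* took 68.4% to 73.4%, 81.7% to 86.1% and 96.8% to 97.0% in the same steps, and still 87.4% to 90.0% in neuroblasts. Each UMI stands for 1 tagged molecule, so that shares between genes do not depend on gene length. Outside the lineage the balance differed between cell types. Oligodendrocyte precursors held 38.1% to 46.1% *Ccnd1*, at 404 to 465 CPM, and endothelial cells 43.0% to 63.8%. Astrocytes, with 7.83% to 10.3% *Ccnd1* and 82.6% to 87.0% *Ccnd2*, were close to dividing RGLs. The highest *Ccnd2* levels were in GABAergic interneurons, at 5187 and 6428 CPM in the mutant libraries. The 3 such cells of the wild-type library were too few to give a value.

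**Figure D2:**
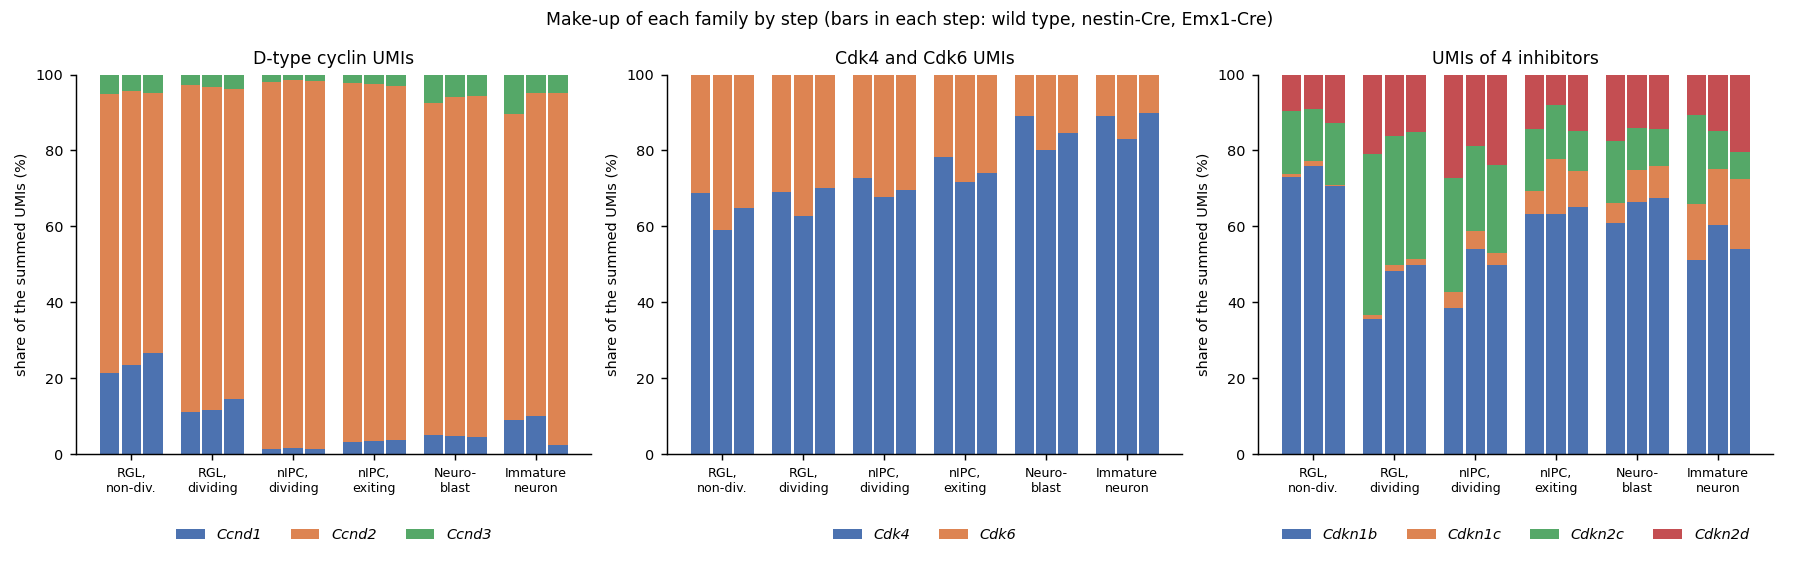
Share (percent of UMIs) of each gene within its family (D-type cyclins, the 2 kinases, the 4 inhibitors) in each of the 6 steps and 3 libraries. *Ccnd2* fills at least 96.8% of D-cyclin UMIs in dividing nIPCs, and the share of *Cdkn1b* among the inhibitors dips to between 35.5% and 54.0% in both dividing steps.

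These shifts were tested between neighbouring steps on UMI sums with edgeR's quasi-likelihood test, with library as a block (18 profiles, 11120 genes), and p-values were adjusted by Benjamini-Hochberg over all genes of a comparison. The replicates are 3 libraries of different genotypes, each a pool, so that the spread includes the genotypes. From non-dividing to dividing RGLs, 6 members rose and 1 fell, where 38.5% of all genes passed the test (20.5% higher, 18% lower), and the median log2 change was 0.78 over the members and -0.01 over all genes. *Ccnd1* was the one that fell, by 0.46 on the log2 scale (SE 0.089, adjusted p = 1.134e-05), and *Ccnd2* rose by 0.73 (SE 0.070, adjusted p = 4.575e-15). When clusters took the place of per-cell gates, *Ccnd2* was lower in dividing RGLs, by -0.31 (adjusted p = 0.001125), so that its direction at this step depends on how the cells were classed.

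From dividing RGLs to dividing nIPCs, both of them classes of cycling cells, 6 members rose and 2 fell, against 37.2% of all genes passing (18.2% higher, 19% lower). *Ccnd1* fell by 2.89 on the log2 scale (SE 0.128, adjusted p = 1.931e-33), the largest change of a member at any step. *Ccnd3* fell by 0.66 (SE 0.161, adjusted p = 0.000552), a call that was lost in thinned cells, under a stricter gate and with clusters (adjusted p = 0.249, 0.0516 and 0.485), and *Ccnd2* rose by 0.48 (SE 0.068, adjusted p = 9.904e-09). When nIPCs left the cycle, *Ccnd2* fell by 0.55 (SE 0.069, adjusted p = 2.871e-10) and *Ccnd1* rose by 0.79 from its low level (SE 0.184, adjusted p = 0.000443). The rise of *Ccnd1* was not called in cells thinned to 1500 UMIs (0.33, adjusted p = 0.548) and was -0.01 with clusters, where the fall of *Ccnd2* was not called either (-0.05, adjusted p = 0.781). From exiting nIPCs to neuroblasts all 3 cyclins fell. *Ccnd1* fell by 1.58 (adjusted p = 1.307e-11), *Ccnd2* fell by 2.14 (SE 0.073, adjusted p = 2.175e-40) and *Ccnd3* fell by 0.80 (adjusted p = 0.000274). The last call was lost without the Emx1-Cre library (adjusted p = 0.0543), in thinned cells (0.0535) and with clusters (0.171).

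**Figure D3:**
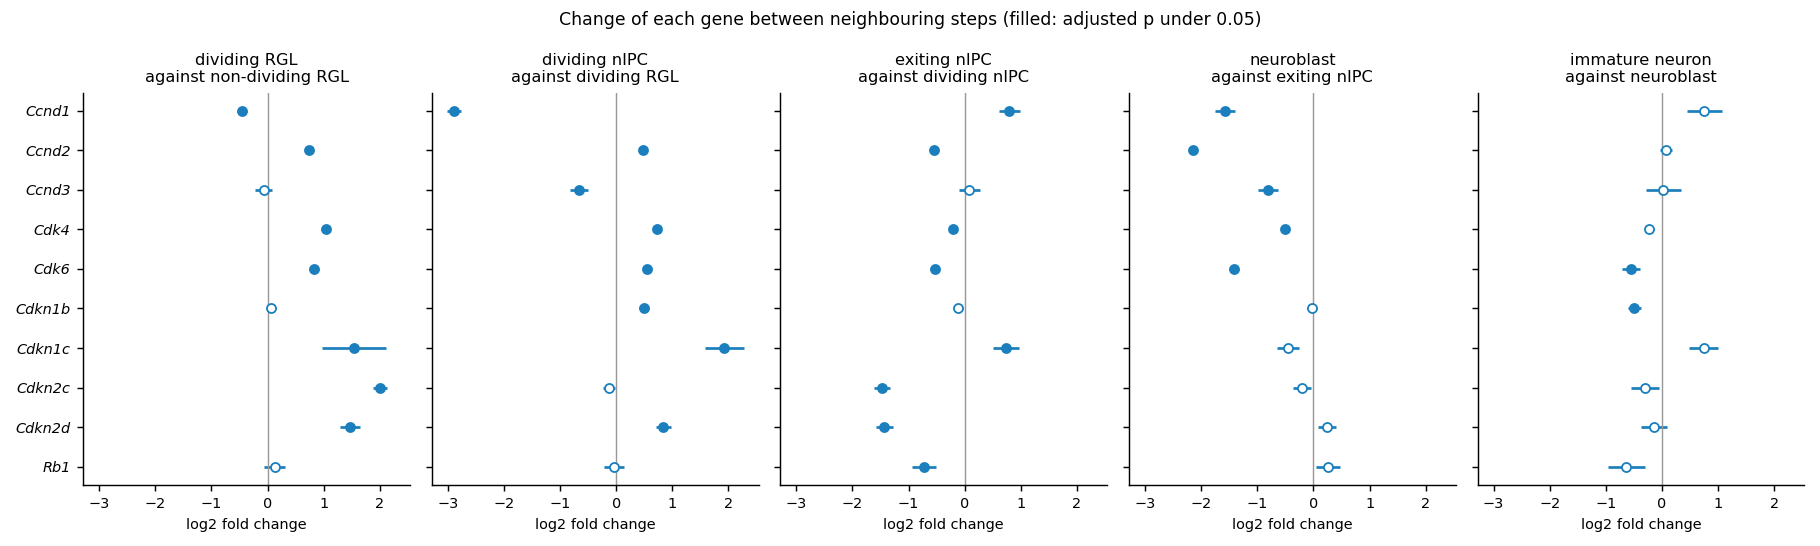
log2 change of each of the 10 genes between neighbouring steps (1 panel for each of 5 passages, bars are standard errors), filled where the adjusted p of edgeR's quasi-likelihood test is under 0.05. The *Ccnd1* value of -2.89 at the passage from dividing RGL to dividing nIPC is the farthest from 0 among the cyclins, and all 5 called changes from exiting nIPC to neuroblast are negative.

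The kinases peaked in the same step as *Ccnd2*. *Cdk4* was at 299.7, 281 and 314 CPM in non-dividing RGLs, 565, 599.7 and 603 in dividing RGLs, 926, 892 and 940 in dividing nIPCs and 853, 754 and 832 in exiting nIPCs. Unlike the cyclins it was still at 648, 502 and 525 CPM in neuroblasts and at 582, 421 and 541 CPM in immature granule neurons, above the non-dividing RGLs in every library. *Cdk6* was at 136, 195 and 170 CPM in non-dividing RGLs and 253, 356 and 256 in dividing RGLs. It was at 345, 425 and 409 CPM in dividing nIPCs, which overlapped the dividing RGLs between libraries but were above them within each. Neuroblasts gave 79.3, 126 and 96.0 CPM and immature granule neurons 70.8, 85.9 and 60.4. *Cdk4* therefore made up 59.0% to 68.8% of the UMIs of the 2 kinases in non-dividing RGLs and 80.0% to 89.1% in neuroblasts.

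Both kinases rose into division, *Cdk4* by 1.03 (SE 0.076, adjusted p = 9.782e-21) and *Cdk6* by 0.83 (SE 0.088, adjusted p = 3.255e-13), and rose again from dividing RGLs to dividing nIPCs, by 0.72 and 0.55. At cycle exit *Cdk6* fell by 0.54 (SE 0.082, adjusted p = 9.343e-08). *Cdk4* fell by 0.21 (SE 0.069, adjusted p = 0.0187), which was lost in thinned cells (adjusted p = 0.486), with clusters (0.778) and without the Emx1-Cre library (0.0853). On the way to neuroblasts *Cdk6* fell by 1.42 (SE 0.088, adjusted p = 1.788e-24) and *Cdk4* by 0.51 (SE 0.069, adjusted p = 4.468e-09). With clusters, the changes of *Cdk6* into RGL division (0.28, adjusted p = 0.0865) and at cycle exit (-0.13, adjusted p = 0.562) were not called. The direction of each kinase was the same in all 3 libraries at each of these 4 passages.

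Of the CIP/KIP inhibitors, *Cdkn1b* hardly followed the steps and *Cdkn1c* was highest in the steps after the RGLs. *Cdkn1b* was at 137, 212 and 165 CPM in non-dividing RGLs, 177, 268 and 246 in dividing nIPCs, 170.3, 224 and 224 in neuroblasts and 121, 172 and 169 in immature granule neurons. Its step means ran from 154 to 230.1 CPM, and every neighbouring pair in their order overlapped. It rose by 0.49 from dividing RGLs to dividing nIPCs (SE 0.087, adjusted p = 1.977e-06), and nothing was called at cycle exit (-0.12, SE 0.086, adjusted p = 0.354) or from exiting nIPCs to neuroblasts (-0.02, SE 0.082, adjusted p = 0.865). With clusters, these were -0.66 (adjusted p = 0.000439) and 0.49 (adjusted p = 0.0085), both called and the second of opposite sign. *Cdkn1c* was at 1.21, 3.58 and 0.966 CPM in non-dividing RGLs, from 2, 7 and 2 UMIs, at 19.9, 23.4 and 16.4 CPM in dividing nIPCs and at 17.6, 54.2 and 32.4 CPM in exiting nIPCs. Its level was 14.9, 28.5 and 27.6 CPM in neuroblasts and 35.4, 42.1 and 57.2 CPM in immature granule neurons, which overlap one another.

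Of the steps of *Cdkn1c*, the rise from dividing RGLs to dividing nIPCs (1.92, SE 0.346, adjusted p = 3.008e-06) was called under all alternatives except in thinned cells (adjusted p = 0.0529). The rises into RGL division (1.54, adjusted p = 0.0248) and at cycle exit (0.73, adjusted p = 0.00974, higher in 2 of 3 libraries) were each lost under several alternatives, among them leaving out the Emx1-Cre library (adjusted p = 0.189 and 0.226). In microglia, *Cdkn1c* was at 11.4, 9.78 and 7.47 CPM, so that its values in both RGL steps, at most 6.09 CPM, lie under what this unrelated cell type gave. By far its highest level was in mural or stromal cells, at 298, 538 and 259 CPM.

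The INK4 inhibitors were high where cells divided. *Cdkn2c* was at 31.4, 38.4 and 38.1 CPM in non-dividing RGLs, 162, 134 and 126 in dividing RGLs and 138, 112 and 114 in dividing nIPCs. In the 3 steps after division it was between 22.3 and 55.6 CPM in every library, with no overlap with the dividing steps. *Cdkn2d* was at 18.1, 25.1 and 29.9 CPM in non-dividing RGLs, 80.3, 64.6 and 56.7 in dividing RGLs, 125, 92.9 and 118 in dividing nIPCs and 40.7, 30.6 and 51.9 in exiting nIPCs. Neuroblasts kept 49.2, 47.7 and 47.6 CPM of *Cdkn2d*, nearly the same value in each library. Outside the lineage, GABAergic interneurons of the mutant libraries held 154 to 214 CPM of *Cdkn2d*, above every step, and 96.7 to 105 CPM of *Cdkn2c*.

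Into RGL division *Cdkn2c* rose by 2.00 (SE 0.131, adjusted p = 1.373e-23), the most of any member at that passage, and *Cdkn2d* by 1.47 (SE 0.178, adjusted p = 7.534e-11). From dividing RGLs to dividing nIPCs, *Cdkn2d* rose by 0.84 (SE 0.134, adjusted p = 2.603e-07) while *Cdkn2c* gave -0.13 (SE 0.106, adjusted p = 0.362). At cycle exit both fell, *Cdkn2c* by 1.47 (SE 0.140, adjusted p = 4.663e-15) and *Cdkn2d* by 1.44 (SE 0.153, adjusted p = 1.371e-12). The rise of *Cdkn2d* into division was not called with clusters (0.63, adjusted p = 0.105), nor its second rise in thinned cells (0.36, adjusted p = 0.279). *Cdkn1b* did not pass the test at either passage into or out of division, and its share of the inhibitor UMIs was 70.5% to 76.0% in non-dividing RGLs, 35.5% to 49.9% in dividing RGLs and 63.2% to 65.2% in exiting nIPCs.

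*Rb1*, the substrate of the kinases, was at most 67.0 CPM in any step. It was at 32.0, 49.6 and 48.3 CPM in non-dividing RGLs, 40.8, 48.7 and 38.6 in dividing nIPCs, 16.5, 23.6 and 34.0 in exiting nIPCs and 35.6, 28.1 and 28.8 in neuroblasts. Its only called change was a fall by 0.73 at cycle exit (SE 0.213, adjusted p = 0.0064). That call was lost without the wild-type library (adjusted p = 0.0718), in thinned cells (0.355) and with clusters (0.201).

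At cycle exit as a whole, 2 members rose and 6 fell, against 25.4% of all genes passing (12.9% higher, 12.5% lower). From exiting nIPCs to neuroblasts 5 fell and 0 rose, against 29.3% (16% higher, 13.3% lower). DESeq2 also called 5 there, and at an unadjusted p under 0.05 *Cdkn1c* (-0.45, adjusted p = 0.0796) would join them. From neuroblasts to immature granule neurons 2 fell and 0 rose, against 3% of all genes (1.27% higher, 1.74% lower): *Cdkn1b* by 0.49 (SE 0.116, adjusted p = 0.00484) and *Cdk6* by 0.55 (SE 0.163, adjusted p = 0.0428). Both calls were lost with DESeq2 and without either mutant library, and the step rests on 78, 167 and 99 cells.

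Partners of the pathway, from lists chosen along with the members, also differed between dividing and non-dividing classes, which were themselves chosen by cycle genes. Into RGL division 20.5% of all genes rose and 18% fell, and at cycle exit 12.9% rose and 12.5% fell. From dividing RGLs to dividing nIPCs 18.2% rose and 19% fell. Of 12 genes of the retinoblastoma family and E2F/DP factors, 8 rose and 0 fell into RGL division, among them *E2f8* (5.10, adjusted p = 1.424e-22) and *E2f1* (2.29, adjusted p = 1.46e-16), which had the smallest p-values, and 7 fell at cycle exit. All 5 genes tested of the list of cyclin E, cyclin A and *Cdk2*, the partners that act after the D-type cyclins, rose into RGL division and fell at cycle exit, *Ccna2* by 5.44 and then by 5.62 (adjusted p = 4.256e-38 and 3.846e-35). From dividing RGLs to dividing nIPCs the E2F list was split, with 4 risen and 3 fallen, among the latter *E2f5*, a repressor that pairs with the RB1 relatives (-1.50, adjusted p = 7.686e-14). Of 7 regulators of D-type cyclins and p27, *Cks1b*, a cofactor in p27 breakdown, rose by 2.47 into RGL division and fell by 2.03 at cycle exit. *Cdkn1a* (p21), the remaining inhibitor with enough UMIs to test, was not called at any passage and was at 2.41, 16.9 and 20.8 CPM in non-dividing RGLs.

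The genes most like each member over the 18 profiles of step and library, by Pearson correlation of log2(CPM + 10) among 6947 genes with a mean of at least 20 CPM, are a description only, since the profiles share libraries and steps. *Ccnd2* and *Cdk6* found each other, with r = 0.955, *Cdk6* being second to *Tox3* (0.967) for *Ccnd2* and *Ccnd2* first for *Cdk6*. *Ccnd1* was closest to *Hepacam*, a glial adhesion protein (0.984), ahead of *Mt1* and *Cdh4*. *Cdkn2c* was closest to *Knstrn* (0.972), *Spc24* and *Haus4*, which work at the kinetochore and the mitotic spindle, and *Cdkn2d* to *Rfc3*, a replication factor (0.917), *Ska2* and *Ctcf*. *Cdkn1c* was closest to *Fbxo21* (0.962), *Cdk4* to *Nt5dc2* (0.951), *Cdkn1b* to *Dhx8* (0.877) and *Rb1* to *Ddost* (0.832). For *Ccnd3* it was *Tns3*.

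The mutant libraries were then set beside wild-type within each step. With 1 library for each genotype there is no test, and both mutants are compared with the same wild-type library. A ratio was described where the pair of libraries held at least 100 UMIs of the gene, with its exact binomial interval at 95%, and a size of 1.5-fold was marked. Of 120 pairs of member, step and mutant, 82 held enough UMIs. Of these 5 were at least 1.5-fold higher in the nestin-Cre library and 3 in the Emx1-Cre library, and 0 were lower. Read from non-dividing RGLs to immature granule neurons, 8.19%, 5.22%, 5.06%, 6.47%, 8.74% and 8.1% of all genes with enough UMIs were at least 1.5-fold higher in the nestin-Cre library, and 2.78%, 2.95%, 3.27%, 4.57%, 6.75% and 5.82% as much lower. For the Emx1-Cre library these shares were 4.81%, 4.1%, 4.28%, 4.48%, 6.04% and 5.32% higher, and 1.68%, 1.59%, 1.62%, 2.61%, 2.98% and 4.35% lower. The 8 pairs of 82 and 0 of 82 are to be read against these shares, and the median ratio of all genes was between 0.974 and 1.036 in all 12 comparisons.

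*Cdkn1b* was higher in both mutants at every step, 12 of 12 comparisons, with the interval above 1 in 10 of them. Of these 12, 1 was under the minimum of UMIs. Its ratio reached 1.54 in non-dividing RGLs (interval 1.31 to 1.82) and 1.52 in dividing nIPCs (1.31 to 1.75) of the nestin-Cre library, and it was 1.201 and 1.39 in the same steps of the Emx1-Cre library. In neuroblasts, with 526, 1284 and 1127 UMIs, the ratios were 1.32 (1.19 to 1.46) and 1.31 (1.18 to 1.46). Outside the lineage its ratios differed between cell types. In endothelial cells *Cdkn1b* was at 66.3, 102.2 and 110 CPM, a ratio of 1.65 (1.21 to 2.29) in the Emx1-Cre library, where 3.71% of all genes were at least 1.5-fold higher. The nestin-Cre ratio there was 1.54 (0.96 to 2.43) from 61 and 30 UMIs, under the minimum, and *Larp7* was at 54.3, 47.7 and 42.5 CPM in these cells. Hemoglobin RNA summed to 396, 30.7 and 5083 CPM in the endothelial cells, at median depths of 2167, 5556.5 and 6067 UMIs. The Emx1-Cre endothelial class was thus unlike the others in hemoglobin, and the part of this in its ratio was not tested. Astrocytes gave 1.34 (1.15 to 1.56) and 1.06 (0.91 to 1.23), and in oligodendrocyte precursors both intervals spanned 1. In microglia *Cdkn1b* was lower, at 121, 72.4 and 87.5 CPM, with ratios of 0.60 (0.47 to 0.76) and 0.72 (0.55 to 0.94), where 9.67% of all genes were at least 1.5-fold lower in the nestin-Cre library. Under the 8 alternatives the ratio in non-dividing nestin-Cre RGLs was 1.502 to 1.63, and that in dividing nIPCs 1.25 to 1.66. The lowest value in dividing nIPCs was that of thinned cells, with an interval that spanned 1 (0.93 to 1.67). In thinned non-dividing RGLs the ratio was 1.56 (1.19 to 2.05). In neuroblasts thinned to 1500 UMIs, the interval for the share of cells with a *Cdkn1b* UMI was 22.1% to 28.0% in wild-type. It was 23.8% to 28.4% in the nestin-Cre and 27.3% to 32.5% in the Emx1-Cre library, each overlapping the others.

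*Cdkn1c* was at least 1.5-fold higher in neuroblasts of both mutants, at 1.91 (1.37 to 2.71) and 1.85 (1.32 to 2.64), from 46 UMIs in wild-type and 163 and 139 in the mutants. The exiting nIPCs gave 3.08 and 1.84 from only 16 wild-type UMIs, under the minimum. The neuroblast ratios were at least 1.52 under all 8 alternatives. In thinned cells, however, both were under the minimum, with 20 UMIs in wild-type and 67 and 45 in the mutants. There the nestin-Cre ratio was 1.96 (1.17 to 3.41). The Emx1-Cre ratio was 1.55, with an interval that spanned 1 (0.90 to 2.78). The share of neuroblasts with a *Cdkn1c* UMI, after thinning every cell to 1500 UMIs, was 2.33%, 4.42% and 3.29% (4.24%, 9.68% and 9.28% without thinning), against 2.241%, 1.06% and 1.76% in microglia (2.84%, 3.47% and 2.90%). Median depths before thinning were 3124, 3588 and 3739 UMIs in neuroblasts and 1964.5, 3259.5 and 3279 in microglia, and 155, 69 and 69 neuroblasts were too shallow to thin. In thinned cells, the interval in neuroblasts lay within that in microglia for the wild-type library (1.43% to 3.57% within 0.972% to 4.37%) and for the Emx1-Cre library (2.37% to 4.44% within 0.482% to 4.45%), so that neither share could be told from background at this depth. That of the nestin-Cre library, 3.43% to 5.6015%, lay above its microglial interval, 0.289% to 2.69%.

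*Ccnd1* in non-dividing RGLs was 1.51-fold (1.33 to 1.71) higher in the Emx1-Cre and 1.34-fold (1.18 to 1.53) higher in the nestin-Cre library, from 378, 598 and 711 UMIs. Across the alternatives the Emx1-Cre ratio was 1.26 to 1.61, and 1.31 in thinned cells. In the dividing nIPCs it was at 45, 50 and 65 UMIs, with both intervals spanning 1. *Ccnd2* was higher in 11 of 12 comparisons but never by 1.5-fold. Its ratios were 1.21 (1.15 to 1.27) and 1.19 (1.14 to 1.24) in dividing nIPCs and 1.33 (1.22 to 1.45) and 1.27 (1.16 to 1.39) in neuroblasts, while dividing RGLs of the Emx1-Cre library gave 0.91 (0.85 to 0.98). Outside the lineage *Ccnd2* was lower in microglia, with ratios of 0.37 (0.31 to 0.44) and 0.66 (0.56 to 0.78). There 9.67% and 5.71% of all genes were at least 1.5-fold lower. In endothelial cells *Ccnd2* was at 255, 112 and 307 CPM. The nestin-Cre ratio there was 0.44 (0.30 to 0.64), where 7.91% of all genes were at least 1.5-fold lower. Astrocytes gave 0.82 and 1.07, and oligodendrocyte precursors 0.81 and 0.92. *Ccnd3* had 0 of 12 intervals away from 1, with at most 133 UMIs a library and 5 of the 12 comparisons under the minimum.

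The kinases parted. *Cdk6* was higher in 11 of 12 comparisons, with the interval above 1 in 9, and by 1.58-fold (1.37 to 1.84) in nestin-Cre neuroblasts, where the Emx1-Cre ratio was 1.21 (1.04 to 1.42). Of the 12 comparisons of *Cdk6*, 2 were under the minimum of UMIs. *Cdk4* had no interval above 1 and 4 below it, among them 0.77 (0.73 to 0.82) and 0.81 (0.76 to 0.86) in neuroblasts, from 2001, 2875 and 2646 UMIs. In dividing nIPCs *Cdk4* was at 0.96 (0.90 to 1.03) and 1.02 (0.96 to 1.08). The cell cycle list was at 589, 453 and 405 CPM in the same neuroblasts, so that wild-type neuroblasts also held more cycle RNA. Its part in the *Cdk4* ratio was not tested. Outside the lineage, *Cdk4* was also lower in the nestin-Cre library. The ratios were 0.80 (0.71 to 0.91) in astrocytes and 0.84 (0.74 to 0.96) in oligodendrocyte precursors. Microglia gave 0.73 (0.63 to 0.84) and endothelial cells 0.69 (0.50 to 0.93). In the Emx1-Cre library astrocytes, oligodendrocyte precursors and microglia gave 0.93, 0.89 and 0.92, with intervals that spanned 1.

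The INK4 inhibitors were at or below wild-type where they were abundant. *Cdkn2c* had ratios of 0.81 (0.67 to 0.98) and 0.83 (0.70 to 0.98) in dividing nIPCs and 0.81 (0.65 to 1.01) and 0.70 (0.55 to 0.88) in neuroblasts. *Cdkn2d* was at 0.74 (0.60 to 0.91) and 0.94 (0.79 to 1.11) in dividing nIPCs and 0.97 (0.79 to 1.19) in neuroblasts of both. Outside the lineage, *Cdkn2c* was past 1.5-fold lower in oligodendrocyte precursors of both mutants, at 0.59 and 0.45 of wild-type, where 4.45% and 1.52% of all genes were that much lower. Astrocytes gave 0.67 (0.53 to 0.85) and 0.77 (0.63 to 0.94) for *Cdkn2d*. In nestin-Cre microglia *Cdkn2c* was at 0.61 (0.43 to 0.86) and *Cdkn2d* at 0.58 (0.39 to 0.86), where 9.67% of all genes were at least 1.5-fold lower. Emx1-Cre microglia gave 1.02 for *Cdkn2c* and 0.91 for *Cdkn2d*. *Rb1* passed 1.5-fold in non-dividing RGLs of both mutants, 1.55 (1.10 to 2.21) and 1.51 (1.07 to 2.15), from 53, 97 and 100 UMIs, but in thinned cells these ratios were 1.08 and 1.02, and in neuroblasts 0.79 and 0.81.

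**Figure D4:**
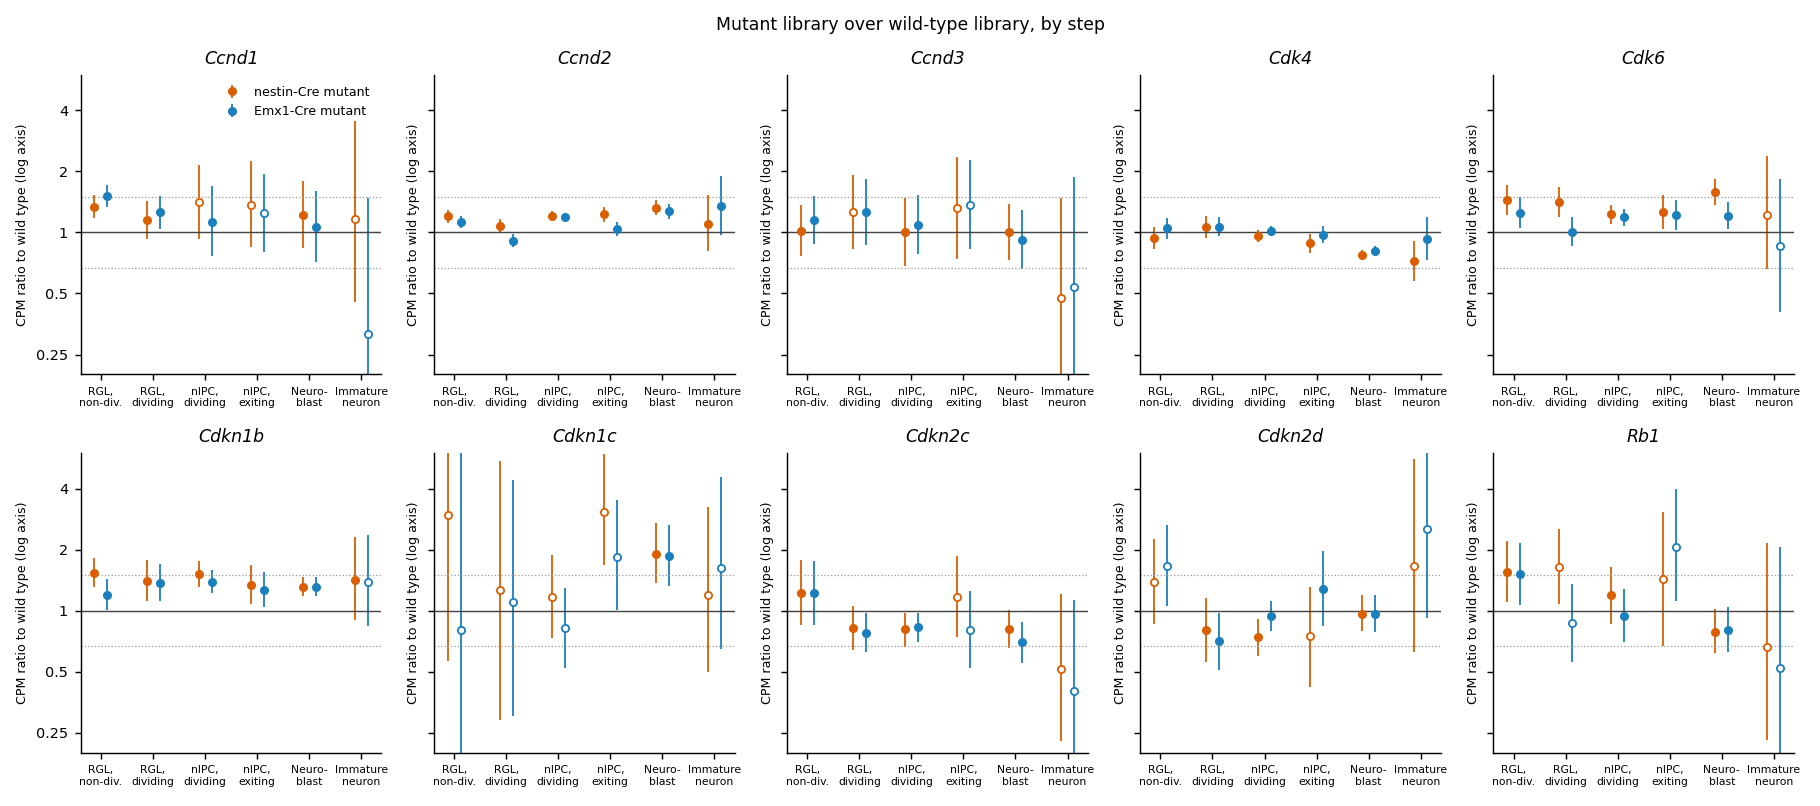
Ratio of mutant to wild-type CPM (log axis) for each of the 10 genes in the 6 steps, for the nestin-Cre and the Emx1-Cre library, with 95% exact binomial intervals for counting error only, cut off at the axis limits; open points hold fewer than 100 UMIs over both libraries and dotted lines mark 1.5-fold. *Cdkn1b* lies above 1 in all 12 comparisons, and *Cdk4* in neuroblasts lies at 0.77 and 0.81.

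Of the 4 pathway lists, 103 pairs of gene, step and mutant held enough UMIs, of which 10 were at least 1.5-fold higher and 2 lower. These counts stand beside the 4.1% to 8.74% of all genes that were as much higher in the same 12 comparisons of step and mutant and the 1.59% to 6.75% that were as much lower. *Tfdp2*, a DNA-binding partner of E2F factors, gave 5 of the 10: dividing RGLs (1.79 and 1.58) and exiting nIPCs (1.63 and 1.81) of both mutants, and dividing nIPCs of the nestin-Cre library (1.76). The other 5 were in the nestin-Cre library: *E2f8*, a repressor made in S phase (1.84), and *E2f3* (1.53) in dividing nIPCs, *Skp2*, which marks p27 for breakdown (1.91), in neuroblasts, and *Fbxw7*, which marks cyclin E for breakdown, in exiting nIPCs (1.68) and neuroblasts (1.59). The lower pairs were *Cks1b* at 0.62 in non-dividing RGLs of the nestin-Cre library and *E2f1* at 0.63 in exiting nIPCs of the Emx1-Cre library. *Cdkn1a* was under the minimum of UMIs in every step.

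In the neurospheres, the 2 wild-type and 3 knockout libraries held 59821311 to 62474602 counts. Levels are given as CPM scaled by edgeR's TMM factors, in the order wild-type 1, wild-type 2, knockout 1, 2 and 3. *Larp7* was at 42.8 and 35.0 CPM in wild-type and at 4.17, 6.35 and 4.39 CPM in the knockouts (log2 change -2.97, SE 0.202, adjusted p = 0.0107). Wild-type culture 2 stood apart from the other 4: 25 cell cycle genes summed to 1927 CPM there, against 3774 in wild-type 1 and 4464 to 4780 in the knockouts, and astrocyte markers to 1600 CPM, against 1157 and 815 to 996. Markers of oligodendrocyte precursors, at 7179 to 8373 CPM, were above those of RGLs, at 4349 to 4977 CPM, in every culture. In bulk RNA, fewer cells of a type and less RNA per cell cannot be told apart, and whether the cultures came from separate animals is not stated, so that the p-values measure the spread between these cultures only.

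In all, 0 of the 10 members passed the test over all genes (edgeR's quasi-likelihood test, 17753 genes, of which 12, or 0.0676%, were called). At an unadjusted p under 0.05 there were 4 of 10 members, *Ccnd1*, *Ccnd3*, *Cdk6* and *Cdkn2d*, where 21.7% of all genes were, and DESeq2 called *Ccnd1*, *Ccnd3* and *Cdk6* (adjusted p = 0.0292, 0.0299 and 0.00784), 3 of 10, where it called 9.49% of all genes. The median log2 change was 0.19 over the members and 0.01 over all genes.

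*Ccnd1* was at 531 and 443 CPM in wild-type and 579, 611 and 664 in the knockouts, a log2 change of 0.34 (SE 0.104, adjusted p = 0.141 by edgeR). *Ccnd3* was at 93.7 and 81.4 CPM against 103, 109 and 112, a log2 change of 0.31 (SE 0.080, adjusted p = 0.117). For both, every knockout was above every wild-type culture, and so for *Cdk4*, *Cdk6* and *Cdkn2d*, 5 of 10 members where 21.3% of all genes did the same. *Cdk6* was scarce, at 5.63 and 4.03 CPM against 6.89, 17.0 and 12.5, a log2 change of 1.33 (SE 0.395, adjusted p = 0.148), and the knockouts differed among themselves by more than the lowest of them did from wild-type. *Ccnd2*, at 815 and 841 CPM against 941, 669 and 899, did not separate the groups (0.01, SE 0.146, adjusted p = 0.968).

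The inhibitors and *Rb1* did not pass the test either. *Cdkn1b* was at 58.5 and 63.1 CPM against 66.3, 61.2 and 60.2 (0.04, SE 0.080, adjusted p = 0.803), and *Cdkn1c* at 41.6 and 37.2 against 25.7, 39.6 and 35.8 (-0.23, SE 0.180, adjusted p = 0.505). *Cdkn2c* was at 100.4 CPM in wild-type 1 and 66.1 in wild-type 2, and the knockouts, at 109.8, 91.5 and 101.98, lay around wild-type 1. *Cdkn2d* was also lowest in wild-type 2, but with every knockout above both wild-type cultures, at 22.4 and 14.02 CPM against 23.6, 25.6 and 26.9 (0.48, SE 0.195, adjusted p = 0.221). *Rb1* was the one member with every knockout below wild-type, at 82.1 and 85.2 against 80.8, 76.0 and 75.4 CPM (-0.11, SE 0.066, adjusted p = 0.36), as were 21.3% of all genes.

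These values lean on wild-type culture 2. With that culture as the only wild-type sample, 4 members were called, *Ccnd1* (adjusted p = 0.0314), *Ccnd3* (0.0226), *Cdkn2c* (0.0226) and *Cdkn2d* (0.0124), along with 11.3% of all genes. With culture 1 alone, 0 members were called and the log2 changes of *Cdkn2c* and *Cdkn2d* were 0.01 and 0.18. In both fits the lone wild-type sample is taken to vary as the knockouts do. *Cdkn1b* and *Cdkn1c*, the inhibitors that were higher in mutant neuroblasts, were among the members with no call in any of these fits, in cultures where the neuroblast markers summed to 282 to 352 CPM.

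**Figure D5:**
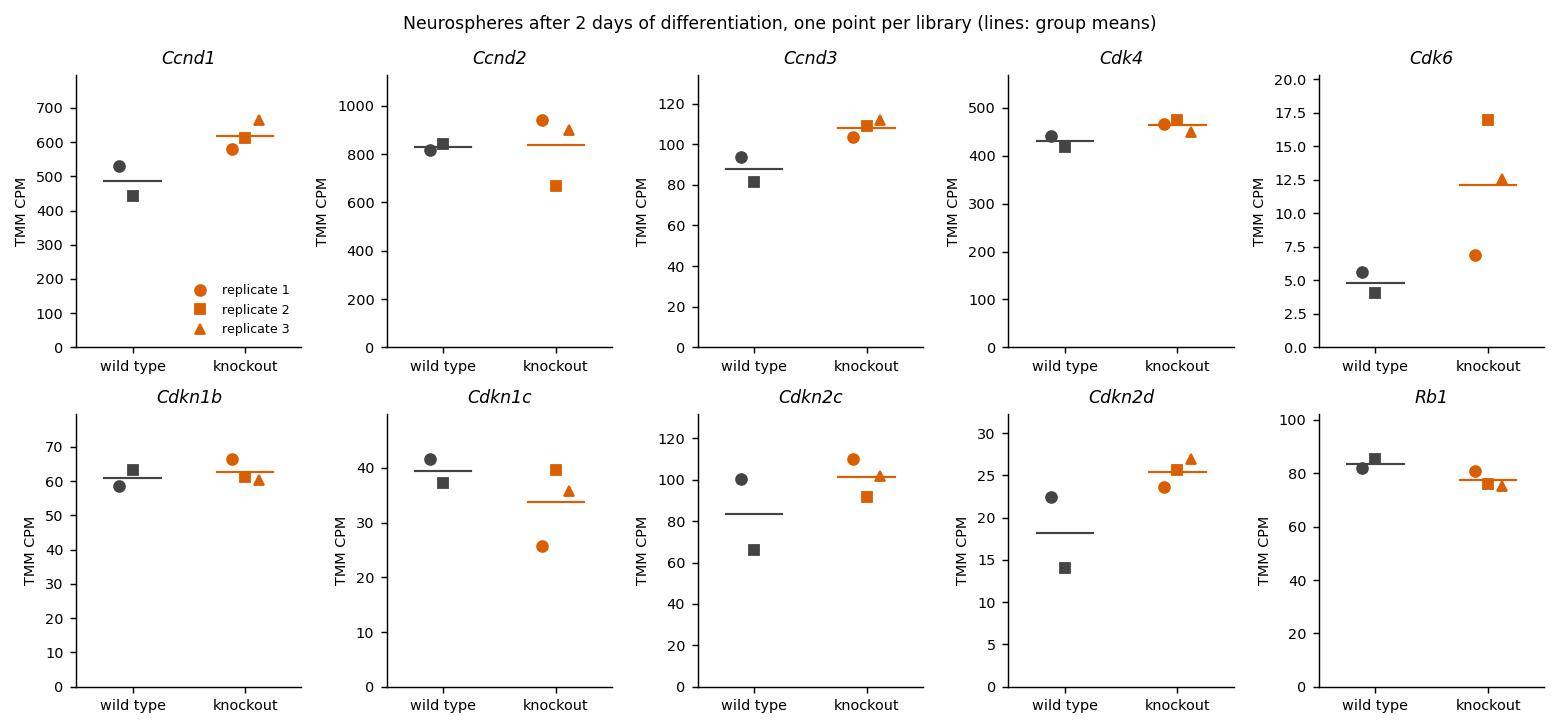
TMM-scaled CPM of each of the 10 genes in the 2 wild-type and 3 knockout neurosphere cultures, 1 point a culture, with lines at the group means. Knockout points lie above both wild-type points for *Ccnd1*, *Ccnd3*, *Cdk4*, *Cdk6* and *Cdkn2d* and below them for *Rb1*, and no gene passes an adjusted p of 0.05.

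The pathway lists gave 0 calls by edgeR as well, with median log2 changes of 0.26 for the 12 genes of the retinoblastoma family and E2F/DP, 0.37 for the 6 of cyclin E, cyclin A and *Cdk2*, and 0.27 for the 7 regulators. The smallest p belonged to *Myc*, a transcription factor that binds E-boxes, at 112 and 96.1 CPM against 149.7, 171 and 157 (0.61, SE 0.091, adjusted p = 0.0743). Its relative *Mycn* was at 0.531 and 0.0498 CPM against 2.89, 2.88 and 2.54 (adjusted p = 0.105), and *Ccne1* at 28.5 and 16.8 against 39.1, 35.6 and 38.5 (0.74, adjusted p = 0.14). *Cdkn1a* was at 80.7 and 57.4 CPM against 99.0, 100.7 and 125 (0.65, SE 0.174, adjusted p = 0.129).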

How the data were processed

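The authors deposited the single-cell data as unnormalized UMI counts, a whole number for each gene and barcode, from 10x Genomics 3′ libraries run through Cell Ranger. For the neurospheres they deposited a table of whole-number counts by gene; the study's methods describe alignment to the mouse transcriptome and the submitters' processing notes name featureCounts and mm10, while the treatment of strand was not found in these sources. Of its 10 count columns, 5 match no sample of the labels and were left out. ATAC-seq and CUT&Tag data were not analysed here. The 3 single-cell libraries and 5 neurosphere libraries were grouped by their labels.

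Cells were kept above 500 genes and below 15% of UMIs from mitochondria, as in the study's methods. Each cell was scored on marker lists (mean of gene z-scores capped at 5) and given the best class with a score of at least 0.3, a margin of 0.2 to the next and at least 3 markers detected; 848 of 8385 lineage cells lay within 0.05 of the margin. RGL and nIPC cells with at least 20 of 10000 UMIs in the cell cycle list were called dividing; 37 to 81 cells per class and library lay between 15 and 25. Scrublet called 2 of 10997 wild-type cells and was taken not to have worked there, so doublets were kept and the 6% of cells with the highest score removed as an alternative. UMIs were summed per library and step (Python 3.11.15, scanpy 1.11.5, numpy 2.4.6, pandas 2.3.3, scipy 1.17.1). Steps and neurospheres were tested with edgeR 4.0.16 (R 4.3.3; TMM, filterByExpr, quasi-likelihood test, Benjamini-Hochberg over all genes tested), with DESeq2 1.42.0 as an alternative, and the scripts were tested on simulated data. Exact Poisson and binomial intervals are at 95%, have 2 sides and cover counting error only. By a one-sided limit at 95%, a count of 0 allows up to 3 counts. The biological coefficient of variation was 5.43% in the step fit and 19.4% in neurospheres, and 0.109% to 0.121% of neurosphere counts fell on genes with no symbol. Counts of replicate neurospheres differed beyond sampling noise. Replicate numbers are shared by wild-type and knockout cultures, and same-numbered cultures did not deviate together (correlations -0.0053 and 0.093 over 17753 genes).

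Named genes were all members, *Larp7*, the genes of smallest p or past 1.5-fold in 4 pathway lists, and the 3 genes most like each member, of which the first is always given. Members and lists were chosen with earlier results of these data known. Alternatives were DESeq2, RLE scaling, no filter on low counts, leaving out each library, replicate or library blocks, thinning, a stricter gate, clusters, at least 1000 genes, rescaled CPM, at least 50 UMIs and, chosen after seeing the data, cells with at least 2500 UMIs.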

Additional observations from a re-analysis of the deposited data

How the results depend on the processing

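The 30 of 50 step calls on members became 27 with DESeq2, 29 with RLE scaling, 24 to 28 without 1 of the 3 libraries, 25 with no library block, 20 in thinned cells, 26 under a stricter gate, 20 of 40 with clusters, which gave no class of immature granule neurons, and 28 in cells with at least 2500 UMIs, an alternative chosen after seeing the data. The calls with clusters were not all among the 30. *Ccnd2* into RGL division was called with the opposite sign. *Cdkn1b* was called at cycle exit and from exiting nIPCs to neuroblasts, where the main fit called nothing. Of the 30 calls, 15 were lost under at least 1 of 11 alternatives, and the cause was not tested. A reversed value was not counted as lost.

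In the neurospheres, DESeq2 called 3 members and 1684 genes in place of 0 and 12, no filter on low counts gave 185 genes, the replicate block gave 0 members and 0 genes, and leaving out 1 culture gave 0 to 4 members and 0 to 2120 genes, the highest without wild-type replicate 1. The replicate numbers do not pair the cultures. Under the block *Ccnd2* was -0.062.

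Of 120 single-cell ratios, 8 past 1.5-fold became 4 in thinned cells, 5 with rescaled CPM, 13 at 50 UMIs and 13 in cells with at least 2500 UMIs.

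Reversed values, none called except where named, were these. Leave-one-out ranges were -0.077 to 0.15 for neurosphere *Ccnd2* and -0.014 to 0.098 for neurosphere *Cdkn1b*. Into RGL division, *Cdkn1b* was -0.021 with DESeq2, -0.021 with RLE, -0.058 with no filter, -0.049 under the stricter gate and -0.046 to 0.15 leaving out 1 library, *Rb1* was -0.00087 with no filter, -0.025 thinned, -0.24 with clusters and -0.072 to 0.41 leaving out 1 library, and *Ccnd2* was -0.31 with clusters (called, adjusted p = 0.001125). From dividing RGLs to dividing nIPCs, *Rb1* was 0.012 with no filter, 0.18 with clusters and -0.20 to 0.10 leaving out 1 library, and *Cdkn2c* 0.24 with clusters. At cycle exit, *Ccnd3* was -0.0029 with no filter, -0.10 thinned, -0.24 with clusters, -0.023 in cells of at least 2500 UMIs and -0.025 to 0.14 leaving out 1 library, and *Ccnd1* -0.012 with clusters. From exiting nIPCs to neuroblasts, *Cdkn1b* was 0.036 thinned, 0.0041 under the stricter gate and 0.49 with clusters (called, adjusted p = 0.0085), *Cdkn1c* 0.13 with clusters, and *Rb1* -0.085 to 0.68 leaving out 1 library. From neuroblasts to immature granule neurons, *Ccnd3* was -0.10 thinned, -1.11 under the stricter gate and -0.16 to 0.32 leaving out 1 library, *Cdkn2d* 0.40 under the stricter gate and -0.39 to 0.046 leaving out 1 library, and *Ccnd2* -0.15 under the stricter gate.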
